A study of Mus musculus with 6 samples.

Results

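RNA polymerase I, II and III are the enzymes that copy the nuclear genome into RNA, and the genes for their subunits were followed here in mouse cells with and without an induced deletion of Kansl1, a scaffold gene of the nonspecific lethal complex that acetylates histone H4. The members were all genes of the expression table whose symbol starts with Polr1, Polr2 or Polr3 followed by a letter and whose mean over the samples was at least 1 TPM. TPM is a gene's reads per unit of length, brought to a common sum in every library. All 28 genes with such a symbol passed that level, out of 26898 genes in the table. By textbook composition, 3 of them serve polymerase I only, 2 serve polymerases I and III, 5 serve all 3 enzymes, 8 serve polymerase II only and 10 serve polymerase III only.

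The samples were primary mouse embryonic fibroblasts (MEFs), connective tissue cells grown directly from mid-gestation embryos, of the C57BL/6 strain at passage 3. The 3 WT samples (numbered 4, 5 and 8) carried the genotype Kansl1fl/fl, with recombination sites around Kansl1 on both alleles. The 3 KO samples (3, 7 and 10) carried Kansl1fl/fl/CAG-cre, that is, the same alleles and a Cre recombinase that tamoxifen activates, driven by the ubiquitous CAG promoter. Tamoxifen was given to WT and KO cells alike (1 μM, 48 h), and the medium held 10% serum per the labels, whereas the general methods of the study name a higher content. No Cre-positive cells without the floxed alleles were analysed here, so Kansl1 loss and Cre cannot be told apart. The study names 3 mice in each group, while the labels do not say whether samples came from separate embryos, and the p-values measure the spread between these samples.

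Each nuclear polymerase has a division of labour. Polymerase I makes the large ribosomal RNA precursor in the nucleolus, polymerase II makes messenger RNAs and many noncoding RNAs, and polymerase III makes transfer RNAs, 5S ribosomal RNA and other short RNAs. Each enzyme has a pair of very large catalytic subunits that form the active centre, a set of small subunits shared among the enzymes, and subunits of its own. Growing fibroblasts depend on all of them.

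Kansl1 itself was 28.54, 26.68 and 24.44 TPM in WT and 13.72, 15.76 and 14.42 TPM in KO, a residual of 55.1% with groups that did not overlap (log2 fold change -0.82, adjusted p = 0.000859). Between 17654338 and 27716119 reads per sample could be recovered from the values, with KO 3 the shallowest sample, and the 28 subunit genes held between 30 reads (Polr3gl) and 11819 reads (Polr2a) in a sample. A single RNA, Gm23935, took between 15.5% and 25.6% of the TPM total. The summed TPM of 8 fibroblast markers was 10300 to 14800 in WT and 11000 to 14400 in KO. The summed TPM of 6 macrophage markers was higher in KO, at 63.6 to 132 against 27.9 to 31.4 in WT. Most of this sum was Lyz2, at 20.62 to 23.82 TPM in WT and 53.07 to 110.8 TPM in KO. Every KO sample lay above every WT sample for Lyz2 (called higher), Adgre1, Cd68 and Csf1r (not called), as in 13.3% of all tested genes. Ptprc and Itgam were under 1 TPM in every sample. Epithelial markers (5 genes) summed to 40.4 to 45.7 TPM in WT and 49.2 to 66.4 in KO with Epcam, Cdh1 and Krt5 under 1 TPM, and endothelial markers (4 genes) to 1.1 to 1.87 and 2.31 to 3.1 with Pecam1, Cdh5 and Tek under 1 TPM. Neural markers (4 genes) overlapped between the groups, and the 1 erythroid marker in the table stayed under 1 TPM. No marker in the table was at 0 in all samples. The part of these other cell types in the results was not tested, and in whole cultures fewer cells of a type and less RNA per cell cannot be told apart.

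In KO cells, messages for a few subunits fell. None of the 6 catalytic subunits was called, which is near the 10.7% called over all tested genes, and Polr2a was called higher under other scalings. A gene was called changed at a Benjamini-Hochberg adjusted p under 0.005 over all 14799 tested genes in limma, with a log2 fold change of TPM + 1 beyond 0.5 in either direction. Of the 28 subunit genes, 5 fell and 0 rose, or 17.9% called. Over all tested genes, 10.7% were called, with 9.03% lower and 1.64% higher. The 5 were Polr2k of all 3 enzymes, Polr2c and Polr2i of polymerase II, and Polr3c and Polr3f of polymerase III. The count was 3 without WT 5, KO 3 or KO 10, and 1 (Polr3c) without the filter on low values, where Polr2k and Polr3f narrowly missed the limit (adjusted p = 0.00511 and 0.00545 in limma). At an unadjusted p under 0.05, 12 subunit genes were lower and 3 higher, against 27.2% and 12.2% of all tested genes. With an adjusted p under 0.05 as the limit, 8 subunits were lower and 0 higher, against 16.6% of all tested genes lower. Under median-of-ratios scaling or voom, 2 were called higher (Polr2a and Polr3e), where 3.2% and 4.34% of all tested genes were. Sample by sample, KO lay entirely below WT for 12 of the 28 and entirely above it for 3, against 29.9% and 13.3% of all tested genes. The log2 fold change was below 0 for 20 of the 28, and for 57.4% of all tested genes. The median log2 fold change of the subunits was -0.21, beside -0.07 for all tested genes. The difference between the subunits and other genes was not tested.

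**Figure D1:**
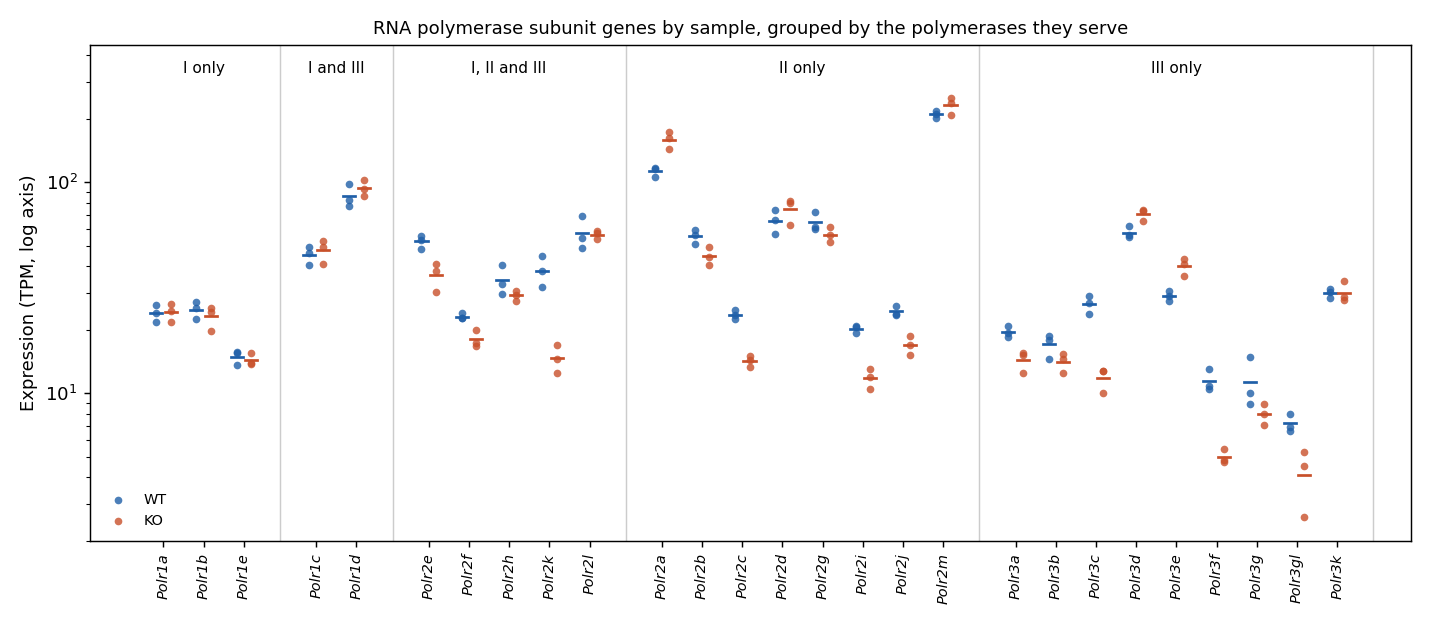
TPM (log axis) of 27 subunit genes in 3 WT (blue) and 3 KO (orange) samples, with a line at each group mean, ordered by the polymerases served. Levels ran from 7.21 TPM (Polr3gl) to 211 TPM (Polr2m) on average in WT, and the KO points of Polr2k, Polr2c, Polr2i, Polr3c and Polr3f lie apart below the WT points.

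Levels differed widely between subunits of 1 enzyme although each holds them in fixed proportions. TPM divides by the merged length of all annotated exons, which lowers the level of genes whose models include long or retained segments. The highest WT mean was 211 TPM for Polr2m, a protein that associates with polymerase II and is not part of its core, and the next was 113 TPM for Polr2a. Polymerase III genes were lowest, with a median WT level of 18.3 TPM over its own 10 subunits against 60.2 TPM over the 8 of polymerase II.

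Of the 3 subunits of polymerase I only, 0 were called (against 10.7% of all tested genes, so that 0 of 3 is near that share), and all 3 overlapped between the groups. Polr1a, the largest catalytic subunit, was 26.11, 23.93 and 21.85 TPM in WT and 21.68, 26.53 and 24.46 TPM in KO (log2 fold change 0.01, SE 0.12). Polr1b, the second-largest subunit, was 27.0, 25.3 and 22.51 TPM in WT and 19.78, 25.44 and 24.39 TPM in KO (log2 fold change -0.10, SE 0.13). The WT and KO samples of both genes thus cover nearly the same range. Polr1e, part of a dimer that acts like built-in initiation and elongation factors, was at 96.4% of WT, with a 95% interval of the log2 fold change from -0.30 to 0.20. The intervals of Polr1a (-0.25 to 0.28) and Polr1b (-0.39 to 0.18) do not reach the 0.5 limit either.

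Polr1c and Polr1d, which pair with each other as the assembly platform of polymerases I and III, also overlapped between the groups. Polr1c was 49.3, 46.26 and 40.69 TPM in WT and 41.1, 52.96 and 49.51 TPM in KO. Polr1d, the gene with the larger change of this pair, was 97.77, 82.3 and 77.73 TPM in WT and 86.57, 102.5 and 92.64 TPM in KO (log2 fold change 0.13, SE 0.12, adjusted p = 0.437 in limma). Polymerase II builds its platform from other genes, Polr2c and Polr2j. There the KO samples lay below the WT samples for both members (as did 29.9% of all tested genes), and Polr2c was called. The difference between the platforms was not tested.

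Of the polymerase I subunits that the table lists under other symbols, 0 of 3 were called (against 10.7% of all tested genes). Twistnb, a partner of the initiation factor Rrn3, was 19.66, 16.48 and 15.92 TPM in WT and 10.11, 12.54 and 12.02 TPM in KO (log2 fold change -0.55, adjusted p = 0.0117 in limma). Znrd1, a small zinc-ribbon subunit that aids transcript cleavage, had a log2 fold change of -0.40 (adjusted p = 0.0262). Both had KO samples wholly below WT, as did 29.9% of all tested genes, and Cd3eap, the partner of Polr1e, overlapped.

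The 5 subunits built into all 3 enzymes all had negative log2 fold changes in this fit (as did 57.4% of all tested genes), with a median of -0.35, and 1 was called lower (against 9.03%). Polr2l turned positive in some other fits, such as median-of-ratios scaling (0.092), voom (0.083) and without WT 4 (0.125). Polr2k, the smallest of the 5 and a zinc-binding peptide that contacts the second-largest subunit and the assembly platform, had the largest change of any subunit. The gene (ENSMUSG00000045996.12) lies on the plus strand at chr15:36174010-36177010 in mm10, with 4 exon blocks of 624 bp in all. It was 44.69, 38.2 and 31.77 TPM in WT (38.2 ± 6.46, SD, n = 3) and 12.56, 17.04 and 14.54 TPM in KO (14.7 ± 2.24, SD, n = 3). The lowest WT sample stood well above the highest KO sample. This left 38.5% of the WT level, with a log2 fold change of -1.32 (SE 0.15) and an adjusted p of 0.000457 in limma. The gene is short, and its values rest on 188 to 226 reads in WT and 57 to 103 reads in KO.

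The other shared subunits had smaller log2 fold changes. Polr2e, which holds the incoming DNA in the jaw, was 53.43, 55.57 and 48.58 TPM in WT and 30.38, 40.9 and 37.88 TPM in KO, and did not pass the test (log2 fold change -0.53, adjusted p = 0.013 in limma), but was called with a 10 TPM filter (adjusted p = 0.00114) and without the 2 most abundant RNAs (0.00181). Polr2f, which supports assembly of the largest subunit, was at 77.9% of WT with KO samples below WT samples (adjusted p = 0.0375). Polr2h, which binds the largest subunit, stood at 84.6% and Polr2l, a small zinc-binding assembly subunit, at 98.2%, and in both the groups overlapped. The shared subunits therefore ranged from a log2 fold change of -1.32 to -0.01 although every polymerase contains them all.

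Among the 8 subunits of polymerase II only, 2 fell (against 9.03% of all tested genes), 0 passed as higher and the median log2 fold change was -0.25. Both calls were lost without WT 5, KO 3 or KO 10 (adjusted p from 0.00528 to 0.00977), and that of Polr2i also without WT 8 (0.00689). Polr2c, the larger partner in the assembly platform, was 24.91, 23.48 and 22.49 TPM in WT and 13.29, 15.12 and 14.47 TPM in KO, without overlap. The gene (ENSMUSG00000031783.10) lies on the plus strand at chr8:94857450-94873535. KO cells held 60.5% of the WT level, and its log2 fold change was -0.69 (SE 0.10, adjusted p = 0.00154 in limma). Its partner Polr2j was at 69.1% of WT (log2 fold change -0.51, adjusted p = 0.00885) and was called only with a 10 TPM filter (0.00194) or an adjusted p limit of 0.05.

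Polr2i, a zinc-binding subunit that serves transcript fidelity and start site choice, was 20.77, 19.38 and 20.53 TPM in WT and 11.91, 13.03 and 10.44 TPM in KO. The gene (ENSMUSG00000019738.15) lies on the plus strand at chr7:30231948-30233390. WT samples were tightly grouped and all KO samples sat below them, at 58.3% of WT (log2 fold change -0.73, SE 0.11, adjusted p = 0.00169 in limma). Whether the reads were counted by strand is not given in the sources used here. The study does not describe its library kit as strand-specific, so reads from shared exons may come from either gene. Part of the exons of these genes is shared with a gene on the other strand. For Polr2c it is 953 bp with Dok4 (18.1% of its exon length), for Polr2i 325 bp with Tbcb (26.8%), and for Polr2j 176 bp with Lrwd1 (15.9%). Mean WT levels were 6.16 TPM for Dok4, 61.5 TPM for Tbcb and 12.5 TPM for Lrwd1. Those of Polr2c, Polr2i and Polr2j were 23.6, 20.2 and 24.5 TPM. The part of shared reads in the subunit values was not tested. None of these neighbours was called. Their own log2 fold changes were -0.41, -0.31 and -0.41, with KO samples below WT samples in each (as in 29.9% of all tested genes). Polr2k, Polr3c and Polr3f share no exon sequence with another gene.

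The largest subunit of polymerase II had higher values in KO. Polr2a, the catalytic subunit whose repetitive tail is phosphorylated during transcription, was 116.3, 117.2 and 106.1 TPM in WT and 143.5, 172.6 and 162.9 TPM in KO. Every KO sample exceeded every WT sample, at 141% of WT on average. Its log2 fold change of 0.49 (SE 0.10, adjusted p = 0.00707 in limma) missed both limits, but it was called higher when libraries were scaled by the median of ratios (log2 fold change 0.59, adjusted p = 0.000281) and with voom on the recovered reads (0.60, adjusted p = 4.33e-05). Polr2b, the second-largest subunit, was 59.41, 56.57 and 50.84 TPM in WT and 40.66, 49.49 and 44.49 TPM in KO, also without overlap but downward (log2 fold change -0.30, SE 0.11, adjusted p = 0.0684).

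Polr2d and Polr2g form the stalk, a detachable module that meets the emerging RNA. Their log2 fold changes were 0.18 and -0.19, and both genes overlapped between the groups. Polr2m, which restrains polymerase II at initiation, was at 110% of WT with overlapping groups.

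**Figure D2:**
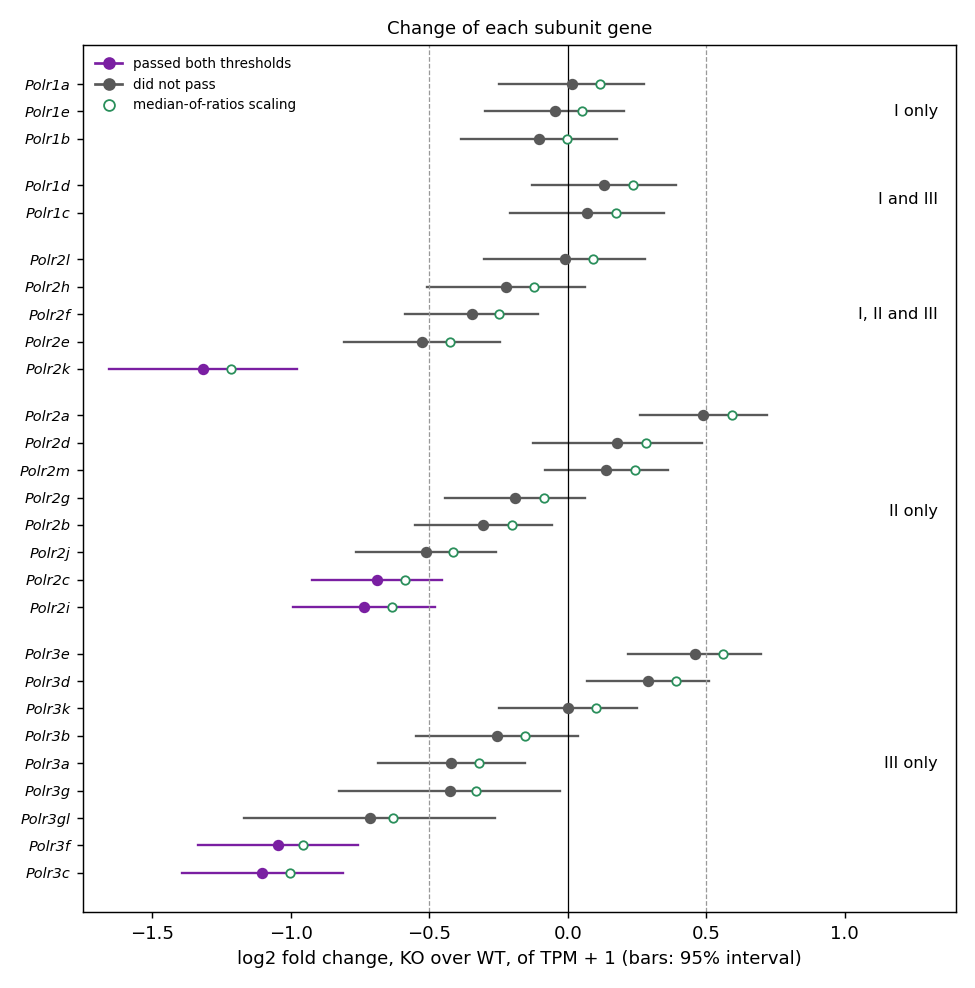
Log2 fold change of TPM + 1, KO over WT, for 27 subunit genes with the 95% interval, in violet where it passed both thresholds, and open green circles for median-of-ratios scaling. The 5 violet points span -1.32 (Polr2k) to -0.69 (Polr2c), no gene of polymerase I only, or of I and III, stands beyond the dashed lines at 0.5, and the rescaled points of Polr2a (0.59) and Polr3e (0.56) pass the upper line.

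The 10 subunits of polymerase III only ranged from -1.10 to 0.46, with 2 of them lower (against 9.03% of all tested genes) and a median log2 fold change of -0.34. Its extra subunits form small modules on the core. Polr3c, Polr3f and either Polr3g or Polr3gl make the module that melts promoter DNA and contacts the initiation factor TFIIIB, and Polr3d and Polr3e make a dimer that acts in initiation and termination. This order by module was chosen after the values were seen.

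Polr3c, the core of the melting module, was 26.86, 29.03 and 23.67 TPM in WT (26.5 ± 2.7, SD, n = 3) and 10.03, 12.71 and 12.77 TPM in KO (11.8 ± 1.56, SD, n = 3). The highest KO sample lay far below the lowest WT sample, and the KO mean was 44.6% of WT (log2 fold change -1.10, SE 0.13, adjusted p = 0.000499 in limma). The gene (ENSMUSG00000028099.8) lies on the minus strand at chr3:96711490-96727628. Polr3f, a winged-helix subunit that touches the TFIIIB subunit Brf1, was 13.04, 10.8 and 10.54 TPM in WT and 4.726, 5.475 and 4.852 TPM in KO, again without overlap. It stood at 43.8% of WT (log2 fold change -1.05, SE 0.13, adjusted p = 0.000603). Its gene (ENSMUSG00000027427.13) lies on the plus strand at chr2:144527718-144541995.

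The last position of this module is filled by either of a pair of paralogs. Polr3g, best known from stem cells and tumours, was 14.86, 10.08 and 8.895 TPM in WT and 7.091, 8.863 and 7.968 TPM in KO (log2 fold change -0.43, SE 0.18, adjusted p = 0.105 in limma). Polr3gl, the form known from most differentiated tissues, was 6.954, 7.998 and 6.669 TPM in WT and 2.583, 4.524 and 5.26 TPM in KO (log2 fold change -0.72, SE 0.20, adjusted p = 0.0268). Neither was called. The KO samples of both lay below WT (as did 29.9% of all tested genes), by a narrow gap for Polr3g (8.895 against 8.863 TPM). Polr3gl was also the shallowest subunit gene, with 30 to 75 reads in KO. The ratio of Polr3g to Polr3gl overlapped between the groups, at 2.14, 1.26 and 1.33 in WT and 2.75, 1.96 and 1.51 in KO.

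Both genes of the Polr3d and Polr3e dimer had KO samples above WT samples, as did 13.3% of all tested genes. Polr3e was 30.56, 28.8 and 27.35 TPM in WT and 36.15, 43.37 and 40.89 TPM in KO (log2 fold change 0.46, SE 0.11, adjusted p = 0.0117 in limma). It did not pass in this fit, but did with median-of-ratios scaling (0.56, adjusted p = 0.000427) and voom (0.58, adjusted p = 8.04e-05). Polr3d was 61.87, 56.42 and 55.31 TPM in WT and 65.76, 72.83 and 74.17 TPM in KO (log2 fold change 0.29, adjusted p = 0.0551).

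The catalytic subunits of polymerase III were not called, and both had negative log2 fold changes. Polr3a, the largest, was 20.86, 19.31 and 18.49 TPM in WT and 12.48, 15.55 and 15.2 TPM in KO, and did not pass the test (log2 fold change -0.42, SE 0.12, adjusted p = 0.0268 in limma). Polr3b, the second-largest, was 18.76, 17.88 and 14.63 TPM in WT and 12.49, 15.32 and 14.58 TPM in KO with overlap (log2 fold change -0.26, SE 0.13, adjusted p = 0.178). Polr3k, which serves RNA cleavage at termination, stood at 100.3% of WT with overlapping groups. Crcp, a polymerase III subunit whose symbol lies outside the rule, overlapped as well (log2 fold change -0.13).

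Ratios within a sample do not depend on how samples are scaled to each other. Polr2a over Polr2b was 1.96, 2.07 and 2.09 in WT and 3.53, 3.49 and 3.66 in KO, a difference far larger than the spread in either group. Polr1a over Polr1b was 0.967, 0.946 and 0.971 in WT and 1.1, 1.04 and 1.0 in KO, slightly higher in KO. Polr3a over Polr3b was 1.11, 1.08 and 1.26 in WT and 0.999, 1.02 and 1.04 in KO, slightly lower in KO. Each of these 3 ratios separated the groups without overlap, which gives the smallest two-sided p that an exact permutation test of 3 against 3 can reach (p = 0.1, and 0.1 after adjustment over the 3 ratios). Taken singly, 29.9% of all tested genes had KO wholly below WT and 13.3% wholly above. The share of other gene pairs whose ratio separates the groups was not computed. The ratio of Polr3e to Polr3c, chosen after the values were seen and so given without a test, went from 1.14, 0.992 and 1.16 to 3.6, 3.41 and 3.2.

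Promoter sequences of the called genes are shown because these were called lower while other subunits of the same enzymes were not called. That of Polr3e is shown because its start lies beside a gene that polymerase III itself transcribes. RefSeq promoters (250 bases before to 50 after the start, GRCm38.p6) were found for 22 of the 28 members, Polr2k not among them. RefSeq starts can differ from the GENCODE starts used for the gene positions and for distances to neighbours on the opposite strand. They do so for Polr3c, Polr2i, Polr3e and Polr3f. Capitals mark the ETS motif CCGGAAG and the CCAAT box in Polr2c (plus strand, chr8:94857200-94857499) and Polr2i (plus strand, chr7:30231824-30232123), and the B box of a transfer RNA gene, GTTCGANNC, in Polr3e (plus strand, chr7:120917528-120917827). Nothing is capitalised in Polr3c (minus strand, chr3:96727390-96727689) and Polr3f (plus strand, chr2:144527495-144527794).
Polr2c: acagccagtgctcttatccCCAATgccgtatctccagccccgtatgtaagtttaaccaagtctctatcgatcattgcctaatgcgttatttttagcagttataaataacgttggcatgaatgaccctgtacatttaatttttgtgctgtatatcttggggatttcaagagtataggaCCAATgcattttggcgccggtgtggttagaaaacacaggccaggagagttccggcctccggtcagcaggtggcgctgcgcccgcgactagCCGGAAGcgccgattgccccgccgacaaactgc
Polr2i: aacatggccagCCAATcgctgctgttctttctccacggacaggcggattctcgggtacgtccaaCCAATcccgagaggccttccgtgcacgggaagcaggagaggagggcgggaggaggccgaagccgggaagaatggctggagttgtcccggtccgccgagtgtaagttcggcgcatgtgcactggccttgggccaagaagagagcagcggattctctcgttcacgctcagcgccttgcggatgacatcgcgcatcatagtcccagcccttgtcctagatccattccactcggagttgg
Polr3c: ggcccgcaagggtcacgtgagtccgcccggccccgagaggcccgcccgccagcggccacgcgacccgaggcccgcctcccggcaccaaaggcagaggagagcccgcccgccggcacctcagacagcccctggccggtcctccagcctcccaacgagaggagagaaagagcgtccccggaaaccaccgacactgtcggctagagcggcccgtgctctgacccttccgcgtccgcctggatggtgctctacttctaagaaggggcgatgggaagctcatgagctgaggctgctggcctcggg
Polr3f: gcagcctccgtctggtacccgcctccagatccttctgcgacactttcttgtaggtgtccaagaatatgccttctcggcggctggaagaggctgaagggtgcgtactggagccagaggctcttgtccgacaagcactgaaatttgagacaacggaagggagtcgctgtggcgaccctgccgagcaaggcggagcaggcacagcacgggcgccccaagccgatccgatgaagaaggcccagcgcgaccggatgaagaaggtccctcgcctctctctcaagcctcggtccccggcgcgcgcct
Polr3e: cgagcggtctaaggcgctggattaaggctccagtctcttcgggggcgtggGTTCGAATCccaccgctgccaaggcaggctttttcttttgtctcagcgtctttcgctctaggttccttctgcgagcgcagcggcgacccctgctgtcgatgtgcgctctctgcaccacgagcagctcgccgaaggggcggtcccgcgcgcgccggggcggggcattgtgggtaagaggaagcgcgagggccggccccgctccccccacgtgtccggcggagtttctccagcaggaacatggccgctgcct

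In these windows, on both strands, CCGGAAG was in 7 of the 22 subunit promoters and in 8.86% of all 32851 promoters, and of the called genes only Polr2c held it. CCAAT was in 7 of 22 against 37.4% of all, and Polr2c and Polr2i each held 2 copies. The GC box GGGCGG was in 14 of 22 against 35.7%, the E-box CACGTG in 4 (among them Polr3c and Polr3e) against 7.15%, and the TATA box letters TATAAA in 2, Polr2a and Polr2c, against 13.6%. The CRE letters TGACGTCA were in 0 of 22 (1.79% of all). Polr3f held none of these 6 motifs. The B box, searched after the Polr3e promoter had been read, was in 277 of 32851 promoters (0.843%) and in 3 of the 22 subunit promoters, those of Polr1b, Polr2j and Polr3e. In Polr3e it lies 200 bases before the start and is followed by a run of T 171 bases before it. RefSeq lists the transfer RNA gene n-TLaag4 there, at chr7:120917517-120917598. This gene ends 180 bases before the RefSeq start of Polr3e. Of 32851 promoters, 10 (0.0304%), with Polr3e as the 1 subunit among them, overlap any of the 430 transfer RNA genes that RefSeq lists. These matches describe the letters in the windows and are no evidence of a bound factor.

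Some subunit genes have an annotated start close to that of another gene on the opposite strand. Whether both genes use a shared promoter was not tested. A tested protein-coding neighbour starting within 1000 bp in the opposite direction was found for 8 of the 28 subunit genes (28.6%), beside 1056 of 11879 tested protein-coding genes (8.89%). Polr3c starts 36 bp from Rnf115, which encodes a ubiquitin ligase. Rnf115 was 31.86, 31.14 and 27.96 TPM in WT and 32.94, 39.78 and 35.7 TPM in KO (log2 fold change 0.24, adjusted p = 0.13 in limma). Its KO samples thus lay above WT (as did 13.3% of all tested genes), while those of Polr3c lay below (29.9%). Yipf3, the neighbour of Polr1c, also had KO samples above WT samples (log2 fold change 0.26). Polr3a starts 67 bp from Rps24, a ribosomal protein gene whose log2 fold change was 0.17 with overlap beside -0.42 for Polr3a. Polr3g and Mblac2 had like values of -0.43 and -0.39. None of the 8 neighbours was called (against 10.7% of all tested genes, so that 0 of 8 is near that share).

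The polymerases work with general transcription factors, elongation factors and assembly chaperones. A list of 79 genes held these, 4 polymerase subunits under other symbols and 6 mitochondrial genes. Of the 79, 78 were in the table and 77 tested. Of the 77 tested, 16 fell and 0 rose (20.8% called, against 10.7% of all tested genes), with a median log2 fold change of -0.24. The number called was 6 to 12 with 1 sample left out, and 4 without the filter on low values. With median-of-ratios scaling or voom, 2 were called higher, against 3.2% and 4.34% of all tested genes. At an unadjusted p under 0.05, 36 were lower and 6 higher, against 27.2% and 12.2% of all tested genes. Each class count that follows stands against 9.03% of all tested genes lower. Among the general factors of polymerase II, 4 of 18 fell. The largest change was that of Gtf2h4, a subunit of the promoter-opening and DNA repair factor TFIIH, which was 13.86, 15.76 and 14.2 TPM in WT and 3.362, 3.894 and 4.192 TPM in KO (log2 fold change -1.70, adjusted p = 0.000126 in limma). The TFIIH genes Gtf2h2 (-0.93) and Ccnh (-0.74) fell too, as did Gtf2f2 of TFIIF (-0.62). The other listed TFIIH genes were not called. Gtf2h3 (-0.44), Gtf2h5 (-0.52), Ercc3 (-0.32), Mnat1 (-0.44) and Ercc2 (-0.003) were negative, and Gtf2h1 (0.24) and Cdk7 (0.05) were positive. With 1 sample left out, the calls of Ccnh and Gtf2f2 were each lost in 5 of 6 fits and that of Gtf2h2 in 2. Gtf2a1 of TFIIA, at 0.53 with KO samples above WT samples, missed the limit (adjusted p = 0.00522).

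Among polymerase III factors, 4 of 16 fell, 3 of them in TFIIIC, which recognises the internal promoters of transfer RNA genes. Gtf3c3 was 25.73, 22 and 21.24 TPM in WT and 9.045, 10.08 and 11.46 TPM in KO (log2 fold change -1.10, adjusted p = 0.000446 in limma). Gtf3c2 (-0.72) shares 38.9% of its exon length with Gm29609 on the same strand, and Gtf3c5 stood at -0.63. Maf1, a repressor of polymerase III, fell as well (-0.57), but was not called with median-of-ratios scaling (-0.47) or voom (-0.50). Of these 4 calls, only that of Gtf3c3 held when any 1 sample was left out, and the others were lost in all 6 such fits. By contrast the largest TFIIIC subunit, Gtf3c1, was 40.65, 39.24 and 38.19 TPM in WT and 53.5, 58.32 and 54.61 TPM in KO, and its log2 fold change of 0.48 (adjusted p = 0.00464) missed the fold limit.

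For polymerase I, 1 of 7 factors fell, the promoter selectivity subunit Taf1b, and Ubtf, which organises ribosomal DNA, overlapped (log2 fold changes -0.94 and -0.05). Among genes of polymerase II elongation and termination, 3 of 16 fell, namely the pausing factors Nelfe (-1.04) and Nelfcd (-0.87) and the elongation factor Supt4a (-0.60, and -0.50 and not called with median-of-ratios scaling). Of 10 genes for polymerase assembly and nuclear import, 3 fell, namely Gpn1 (43.4% of the WT level), a GTPase needed to bring polymerase II into the nucleus, Rpap1 (log2 fold change -0.91) and the cochaperone Rpap3 (-0.60). With 1 sample left out, the calls of Supt4a and Rpap3 were each lost in 5 of 6 fits, that of Taf1b in 4 and that of Rpap1 in 2. All 6 mitochondrial genes of the list had KO samples below WT samples (as did 29.9% of all tested genes), and 1 was called, the mitochondrial polymerase Polrmt, at 16.73, 18.89 and 17.06 TPM in WT and 8.012, 9.318 and 8.607 TPM in KO (log2 fold change -0.94, adjusted p = 0.000515 in limma).

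Of 11 listed transcripts that polymerases I and III make, 1 was in the table, the polymerase III product Rn7sk, an RNA that holds the elongation kinase of polymerase II inactive. It was 1.491, 2.756 and 3.186 TPM in WT and 9.969, 14.65 and 23.01 TPM in KO, with every KO sample above WT (log2 fold change 2.24, SE 0.28, adjusted p = 0.000669 in limma). These values rest on 4 to 10 reads in WT and 24 to 68 reads in KO, and the adjusted p reached 0.00832 in another fit.

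Genes of the cell division cycle were read beside the subunits. Of 20 proliferation genes 8 fell and 0 rose (against 9.03% and 1.64% of all tested genes), 12 were not called, and 2 of those, Pcna and Mcm4, overlapped between the groups, with a median log2 fold change of -0.64, and Mki67 went from 71.57, 61.31 and 52.72 TPM in WT to 25.65, 36.86 and 35.22 TPM in KO. Myc, a driver of ribosome and polymerase genes, overlapped (log2 fold change -0.05). Their part in the subunit values was not tested.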

How the data were processed

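The authors aligned reads of total RNA libraries (NEBNext Ultra kit) from 3 WT and 3 KO samples to mm10. The methods of the study name STAR, while the submitters' processing notes list Bowtie 0.12.2, and the counting program and the treatment of reads that match several places are not given in the sources used here. Expression was deposited by the authors as TPM. Columns that the authors deposited with their own log2 fold change and adjusted p-value were not used.

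Of the gene identifiers, 26876 matched GENCODE M21 and 22 did not. Each TPM multiplied by merged exon length gave whole reads (100.0% of low values at a tolerance of 0.05), which describe depth. Groups were compared with limma 3.58.1 (R 4.3.3) on the log2 of TPM plus 1, with prior variance following the mean and no covariate, over genes with a group mean of at least 1 TPM, which understates changes of low genes. Calls needed a Benjamini-Hochberg adjusted p under 0.005 and a log2 fold change beyond 0.5, the study's limits. The procedure was tested on simulated data. By rule, full values are given for called subunits, the catalytic subunits, the Polr3g paralogs and the subunit with the largest change in each class, and called genes of the other lists are named. Full values of further genes, and further names, were chosen after their values were seen. The values of 1 subunit gene are not reported here, though it is in every count of members. Members and lists were chosen with earlier results of these data known. Alternatives were a pseudocount of 0.1 TPM, no filter or 10 TPM, no variance trend, median-of-ratios scaling, removal of the 2 most abundant RNAs, an adjusted p of 0.05, voom on recovered reads and leaving out each sample.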

Additional observations from a re-analysis of the deposited data

How the results depend on the processing

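Without the filter on low values, 341 tested genes changed (55 higher and 286 lower), with 1 subunit changed, the lower Polr3c of polymerase III (1 of its own subunits, against 0 for polymerase II only and 0 for the shared subunits), and 4 other transcription genes changed, all 4 lower. At an adjusted p under 0.05, 3147 tested genes changed (694 higher, 2453 lower), with 8 subunits lower (8 changed, 2 of them shared) and 27 other genes changed, 26 lower and 1 higher. Scaling by the median of ratios gave 473 tested genes higher (the median gene moved by 0.095), and voom (moved by 0.097) gave 2438 changed with 642 higher. Each called 2 subunits higher, 1 of polymerase II only and 1 of polymerase III only, and 2 other genes higher. Without the 2 most abundant RNAs, 1 subunit was higher, of polymerase II only, 2 shared subunits were lower, and 25 other genes changed with 2 higher. A 10 TPM filter gave 7 subunits lower, 2 of them shared, and 1 other gene higher, and no value for Polr3gl, Gpn1 and Gtf3c2. The fits without the 2 most abundant RNAs and with the 10 TPM filter tested 15630 and 8230 genes. Each called a larger share of all tested genes than the main fit, both lower (9.03% in the main fit) and higher (1.64%). Whether the subunit counts of these fits exceed such larger shares was not tested. The causes were not tested.

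Leaving out each sample in turn gave 758 to 1081 tested genes changed, 84 to 252 higher and 617 to 938 lower, 3 to 5 subunits changed and 3 to 5 lower, 0 to 2 lower of polymerase II only, and 6 to 12 other genes changed and 6 to 12 lower. Polr2k, Polr3c and Polr3f were called in all 6 of these fits. Polr2c missed the limit without WT 5, KO 3 or KO 10 (adjusted p = 0.00739, 0.00528 and 0.00758), and Polr2i without WT 5, WT 8, KO 3 or KO 10 (0.00587, 0.00689, 0.0059 and 0.00977).

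Small log2 fold changes turned sign. With voom they were 0.001 for Polr1b, 0.046 for Polr1e, 0.083 for Polr2l and 0.104 for Polr3k. With median-of-ratios scaling they were 0.051 for Polr1e, 0.092 for Polr2l and 0.101 for Polr3k. Without the 2 most abundant RNAs they were 0.008 for Polr2l and 0.018 for Polr3k. Leaving out a sample gave -0.052 to 0.088 for Polr1a, -0.173 to 0.002 for Polr1b, -0.005 to 0.174 for Polr1c, -0.12 to 0.125 for Polr2l and -0.089 to 0.055 for Polr3k. No paired analysis was possible because WT and KO samples share no replicate number.

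Of the 16 other transcription genes, Gtf2h4, Gtf3c3, Nelfe, Nelfcd, Gpn1 and Polrmt were called in all 6 fits that leave out a sample. Gtf3c2, Gtf3c5 and Maf1 were called in 0 of 6, and Ccnh, Gtf2f2, Rpap3 and Supt4a in 1. Taf1b missed the limits in 4, and Gtf2h2 and Rpap1 in 2. Without a variance trend, the calls of Ccnh, Gtf2f2, Gtf3c2, Gtf3c5, Maf1, Rpap3 and Supt4a were lost (adjusted p from 0.00671 to 0.0105). Rpap3 was also lost with the 0.1 TPM pseudocount (0.00522), and Supt4a with median-of-ratios scaling (-0.498). Among the subunits, depth was lowest for Polr3gl, at 30 to 112 reads a sample.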
